A study of Mus musculus with 23 samples.

Results

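The comparison described here sets F9 cells kept in solvent against F9 cells that were not treated. Both DMSO libraries, 1 taken at 24 h and 1 at 48 h, were pooled as 1 group of 2 and compared with the 4 libraries of untreated cells at 0 h. These 6 libraries are 6 of the 14 mRNA libraries and of the 23 samples of the series, and they were chosen by their labels alone. The comparison describes solvent and time in culture without retinoic acid, and the 2 cannot be told apart because no untreated culture at 24 or 48 h was analysed here.

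F9 is a mouse embryonal carcinoma line, a tumour line that grows as undifferentiated cells resembling the early embryo and turns into primitive endoderm when it is given retinoic acid (RA). The DMSO group had 0.001% dimethyl sulfoxide in the medium. The untreated group was harvested at 0 h, and its labels carry the name of the RA time course with a time of 0 h. All cultures were plated on gelatine in medium with fetal bovine serum and L-glutamine 16 h before treatment began. The RA groups of the same series received all-trans RA at 1e-07 M for 6, 12, 24 or 48 h, in 2 libraries per time, and since RA was added from a DMSO stock those cultures carried solvent as well. Each DMSO time is a single library, and no label says whether the libraries of a group came from separate cultures, so the p-values below rest on differences among the deposited libraries, whose spread could be technical alone. In bulk RNA, fewer cells of a type and less RNA per cell cannot be told apart.

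DMSO is the usual carrier for retinoids, and at higher doses than that used here it is itself known to drive differentiation of some embryonal carcinoma and leukaemia lines. A culture left for longer after plating also becomes denser and uses up its medium. Cells take cholesterol and fatty acids from serum, and when little is left they switch on their own synthesis through the SREBP transcription factors. Crowded or poorly aerated cells raise glycolytic and hypoxia genes through the HIF factors. RA acts through RAR and RXR receptors on genes such as Cyp26a1, Rarb and the Hox clusters.

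The mRNA libraries held between 7078941 and 10948932 gene counts, with 7625521 and 7973304 in DMSO at 24 and 48 h against 7078941, 10538336, 9883000 and 10304095 in the untreated 0 h libraries 1 to 4. The 14 libraries fell into 2 sets by their share of reads outside any gene feature, at 57.3 to 59.43% in set 1 and 52.51 to 53.77% in set 2. Set 1 held both DMSO libraries, 0 h library 1 and 1 library of each RA time, and the labels do not say what the sets are. The set term alone was called for 6870 of 15422 genes (44.5%). Of the 4 untreated libraries only library 1 shares a set with the DMSO libraries, so the set was a term of every fit below unless the sentence says otherwise. CPM values, their sums, statements on overlap of groups and ratios of low counts carry no set term. In these, differences between DMSO and untreated libraries 2 to 4 include the set difference.

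The DMSO libraries lay far closer to the untreated library of their own set than to those of the other set. Over 11023 genes with at least 5 CPM (the usual depth-scaled read count, here with TMM factors), the root mean square difference in log2 CPM was 0.294 between DMSO 24 h and 0 h library 1 and 0.353 between DMSO 48 h and that library. The 2 DMSO libraries differed from each other by 0.305, so the 48 h library lay nearer to the 24 h one than to 0 h library 1. The 3 untreated libraries of set 2 differed among themselves by 0.341 to 0.418, and every pair across the sets, including 0 h library 1 against 0 h libraries 2 to 4, differed by 0.711 to 0.778. The DMSO libraries lay at most 0.353 from 0 h library 1, within or below the range among the untreated libraries of set 2.

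**Figure D1:**
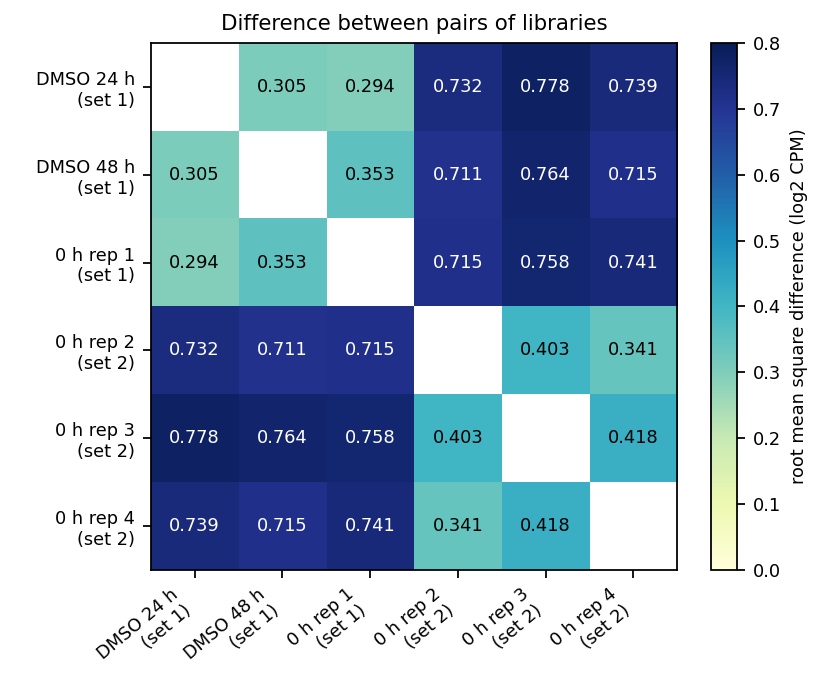
Root mean square difference in log2 CPM over 11023 genes between each pair of the 2 DMSO and 4 untreated 0 h libraries, with the library set in brackets and darker squares for larger differences. Pairs within set 1 lie between 0.294 and 0.353, pairs within set 2 between 0.341 and 0.418, and pairs across sets between 0.711 and 0.778.

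No gene was called between DMSO and untreated cells. With edgeR's quasi-likelihood F-test on all 14 libraries, 0 of 15422 genes (0%) reached a Benjamini-Hochberg adjusted p under 0.05, and the smallest adjusted p was 0.332. At an unadjusted p under 0.05 there were 630 genes higher (4.09%) and 620 lower (4.02%), in all 1250 genes (8.11%). DESeq2 with the same set term, run without edgeR's filter for low counts, called 16 genes, 9 higher and 7 lower. Among them were Peg3, Bhlhe40 and Ccng2. Of the lower ones Slmapos2, Disc1, Gm11712 and Tmem30c had log2 changes between -17.8 and -16.7. Over all genes the edgeR changes ran from -6.35 to 5.15. The DESeq2 changes of those lower genes lay far outside that range. Their size is not read as a fold change, since that fit had no filter for low counts. In the same edgeR fit RA was called for 985 genes at 6 h (6.39%), 2329 at 12 h (15.1%), 4900 at 24 h (31.8%) and 7788 at 48 h (50.5%), all against the same 0 h libraries. The median log2 change of all genes under DMSO was -0.01.

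The error of the comparison sets what could have been seen. The standard error of a log2 change had a median of 0.24 over all genes. For the 10971 genes that averaged 5 CPM or more at 0 h the 95% interval reached a median of 0.40 to either side, and for 9467 of them (86.3%) it lay wholly within a 2-fold change in either direction (log2 of 1). For those genes a change of more than 2-fold fell outside the interval, and smaller changes of single genes were often not detectable with 2 libraries against 4.

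Comparing within set 1 alone gave another count. There the 2 DMSO libraries met 0 h library 1 without any library of set 2, and 119 of 15179 genes (0.784%) were called, 88 higher (0.58%) and 31 lower (0.204%). This fit has 1 residual degree of freedom, which comes from the difference between the DMSO libraries, and every gene borrows its spread from a trend over all genes. It has no measure of how untreated cultures of set 1 vary. When the same contrast with 0 h library 1 took its spread from all 14 libraries, 0 genes were called, with 639 at an unadjusted p under 0.05. DESeq2 within set 1 called 29 genes, and all 29 were among the 119. Of the 88 higher genes 85 also had a positive change in the fit of 14 libraries, 34 of them at an unadjusted p under 0.05. Of the 31 lower genes all 31 had a negative change there, 23 at an unadjusted p under 0.05. All these fits share the DMSO libraries and 0 h library 1, so the shared calls and signs are not separate support. Statements that genes were called within set 1 rest on that 1 untreated library.

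**Figure D2:**
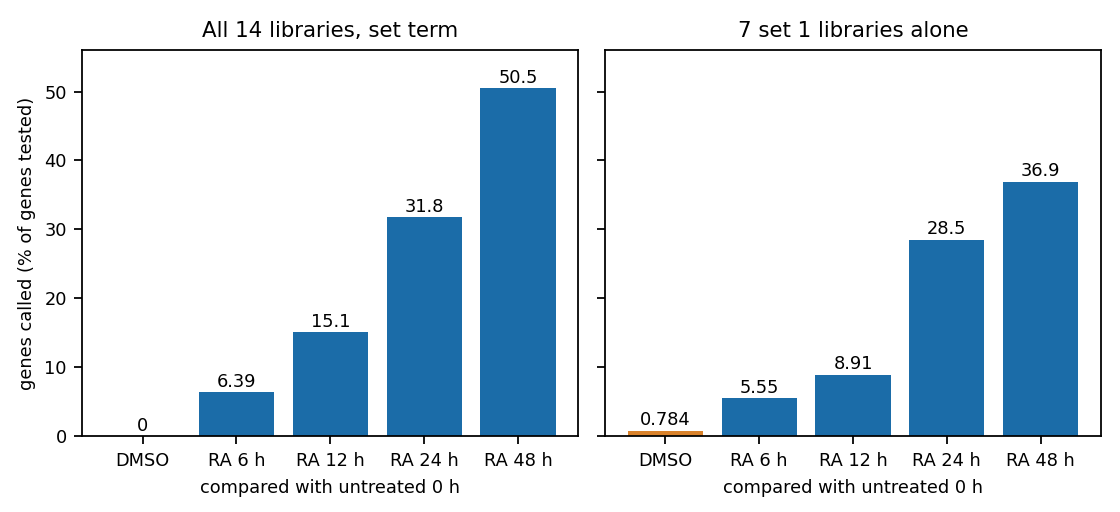
Share of tested genes called at an adjusted p under 0.05 against untreated 0 h, for DMSO (orange) and each RA time (blue), in the fit of 14 libraries with a set term and in the 7 set 1 libraries alone. DMSO stands at 0 and 0.784%, and RA lies between 5.55 and 50.5%.

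Of the 88 genes called higher within set 1, 32 were in the lists of cholesterol synthesis, fatty acid synthesis or glycolysis. Of the 23 tested genes of cholesterol synthesis and uptake 16 were called higher there and 0 lower, against 0.58% of all genes higher, and of the 12 tested genes of fatty acid synthesis 7 were called higher. In the fit of 14 libraries 0 of either list were called. Their median log2 changes in that fit were 0.29 and 0.33, against -0.01 over all genes. Of their members 20 of 23 and 11 of 12 were positive, against 48.7% of all genes. The lists were chosen with earlier results of these data known.

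The enzymes of the sterol pathway were high in both DMSO libraries. Cyp51, which removes the methyl group of lanosterol, had 272 and 276 CPM in DMSO at 24 and 48 h, against 113, 118, 187 and 205 CPM in the untreated libraries 1 to 4. Both DMSO values lay above all 4 untreated values, and the log2 change was 1.27 within set 1 (adjusted p = 2.22e-14) and 0.43 ± 0.36 (SE) over 14 libraries (adjusted p = 0.727).

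Insig1, an SREBP target that holds the pathway in check, had 224 and 215 CPM in DMSO against 91.1, 58.7, 95.1 and 111 CPM in untreated cells, again without overlap. Its set effect was as large, at a log2 difference of 1.25 between set 1 and set 2, and its change was 1.27 within set 1 (adjusted p = 1.1e-13) and 0.29 ± 0.43 over 14 libraries. Sc5d, a late enzyme of the pathway, was the member with the smallest p over 14 libraries, at 0.54 ± 0.20 (unadjusted p = 0.0142, adjusted p = 0.567). In all, 19 of the 23 members had both DMSO libraries above all 4 untreated libraries, against 11.7% of all genes. That count carries no set term. The median set effect of the list was 0.44 (log2, set 1 minus set 2), against -0.01 over all genes.

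Among the fatty acid genes Scd2, a stearoyl-CoA desaturase, had 1809 and 1991 CPM in DMSO against 946, 662, 883 and 1044 CPM in untreated cells. Its log2 change was 0.70 ± 0.21 over 14 libraries (adjusted p = 0.566) and 1.00 within set 1 (adjusted p = 1.27e-11), so this gene kept most of its change when set 2 entered the fit. Fasn, the fatty acid synthase, had 2478 and 2118 CPM in DMSO against 1547, 1207, 1762 and 1957 CPM, with 0.06 ± 0.26 over 14 libraries. Me1, the malic enzyme that supplies NADPH to the pathway, ran the other way, at 25.1 and 21.2 CPM in DMSO against 36.5, 40.6, 34.1 and 39.1 CPM, with -0.52 ± 0.18 (unadjusted p = 0.0102, adjusted p = 0.566).

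The summed level of the 23 cholesterol genes shows where the sets part. Within set 1 it was 4433 and 4091 CPM in DMSO at 24 and 48 h, 2984, 3403, 4351 and 3841 CPM in RA at 6, 12, 24 and 48 h, and 2422 CPM in 0 h library 1. Every later library of set 1, with solvent alone or with RA, thus lay above the untreated one. Within set 2 it was 2122, 1954, 2260 and 1803 CPM in RA at 6, 12, 24 and 48 h, and 2151, 3063 and 3216 CPM in the untreated libraries 2 to 4. In set 2 the RA library at 24 h lay above 0 h library 2, the other 3 RA libraries lay below all 3 untreated ones, and set 2 holds no DMSO library. Of the 23 genes 19 had all 4 RA libraries of set 1 above 0 h library 1, against 21.6% of all genes, and 0 had all 4 RA libraries of set 2 above the 3 untreated libraries of set 2, against 13.1% of all genes. A test of whether the set difference itself changed between 0 h and the later libraries called 0 genes by edgeR, with 1115 at an unadjusted p under 0.05.

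The 12 fatty acid genes summed to 6554 and 6335 CPM in DMSO against 4139, 3297, 4255 and 4719 CPM in the untreated libraries. Both DMSO sums lay above all 4 untreated sums. In set 1 RA at 6, 12, 24 and 48 h held 4521, 5158, 5943 and 6319 CPM, all above 0 h library 1. In set 2 RA held 3707, 3646, 4181 and 3178 CPM, within or below the range of the untreated libraries of that set. The 22 genes of glycolysis and glucose uptake summed to 12560 and 12425 CPM in DMSO against 8444, 8179, 10636 and 8782 CPM in untreated cells. In set 1 RA at 6, 12, 24 and 48 h held 10328, 9815, 11719 and 8602 CPM, again all above 0 h library 1. In set 2 RA held 9798, 9590, 9549 and 6204 CPM, within or below the range of the untreated libraries of that set. The median set effect was 0.41 for the fatty acid list and 0.24 for the glycolysis list, against -0.01 over all genes.

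**Figure D3:**
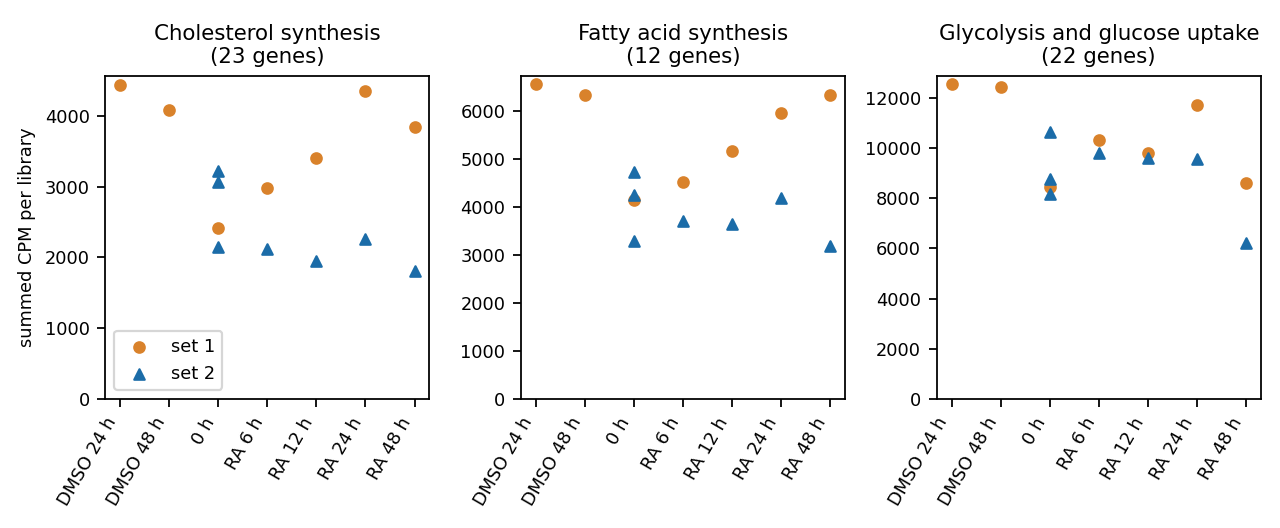
Summed CPM of the tested genes of 3 lists in each of the 14 libraries, by treatment and time, with set 1 as orange circles and set 2 as blue triangles. The DMSO libraries hold 4433 and 4091 CPM of cholesterol genes, against 2151 to 3216 CPM at 0 h, and the RA libraries of set 1 lie above those of set 2.

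Of the 22 glycolytic genes 9 were called higher within set 1, against 0.58% of all genes, and 0 lower. Over 14 libraries 0 were called, the median log2 change was 0.25 and 19 of 22 were positive, against 48.7% of all genes. Tpi1, triosephosphate isomerase, had 553 and 587 CPM in DMSO against 231, 271, 438 and 341 CPM in untreated cells. Its change was 0.79 ± 0.29 over 14 libraries (unadjusted p = 0.0189, adjusted p = 0.567) and 1.30 within set 1, where it had the smallest adjusted p of all genes (1.91e-16). Pfkl, the liver-type phosphofructokinase, had 695 and 732 CPM in DMSO against 322, 351, 547 and 455 CPM, and 0 h library 1 was the lowest of the untreated libraries for both genes.

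Slc16a3, the lactate exporter MCT4, had 611 and 623 CPM in DMSO against 265, 284, 576 and 312 CPM in untreated cells. Ldha, which makes lactate, had 1046 and 1109.7 CPM in DMSO against 516, 819, 1343 and 1261 CPM, so here 2 untreated libraries exceeded both DMSO libraries and the change over 14 libraries was 0.42 ± 0.38. The neuronal glucose transporter gene Slc2a3 had 1082 and 1092 CPM in DMSO against 952, 1116, 851 and 804 CPM, at 0.44 ± 0.16 over 14 libraries (unadjusted p = 0.0176, adjusted p = 0.567) but 0.19 within set 1. Hk2, the hexokinase of proliferating cells, had -0.22 ± 0.15. Several of these enzymes have near-identical processed copies in the mouse genome, so the counts of Aldoa, Eno1, Gapdh, Ldha, Pgk1 and Tpi1 are uncertain to the extent that reads were shared with copies, and Aldoart2 and Eno1b were called with Aldoa and Eno1 within set 1.

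Of the 17 tested hypoxia genes 3 were called higher within set 1, against 0.58% of all genes. Over 14 libraries 0 were called, with a median of 0.22 and 14 of 17 positive, against 48.7% of all genes. Bnip3, a HIF target of mitochondrial turnover, had 40.8 and 39.7 CPM in DMSO against 12.1, 28.7, 39.8 and 23.5 CPM in untreated cells, at 0.93 ± 0.38 over 14 libraries (unadjusted p = 0.0274, adjusted p = 0.593). Egln3, an oxygen-sensing prolyl hydroxylase and HIF target, had 27.2 and 24.0 CPM in DMSO against 18.7, 18.9, 17.4 and 19.8 CPM, without overlap, at 0.76 ± 0.21 (unadjusted p = 0.00305, adjusted p = 0.551). Vegfa, the angiogenic growth factor, had 139.7 and 114 CPM in DMSO against 137, 108, 82.7 and 135 CPM, with 0.08 ± 0.20.

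**Figure D4:**
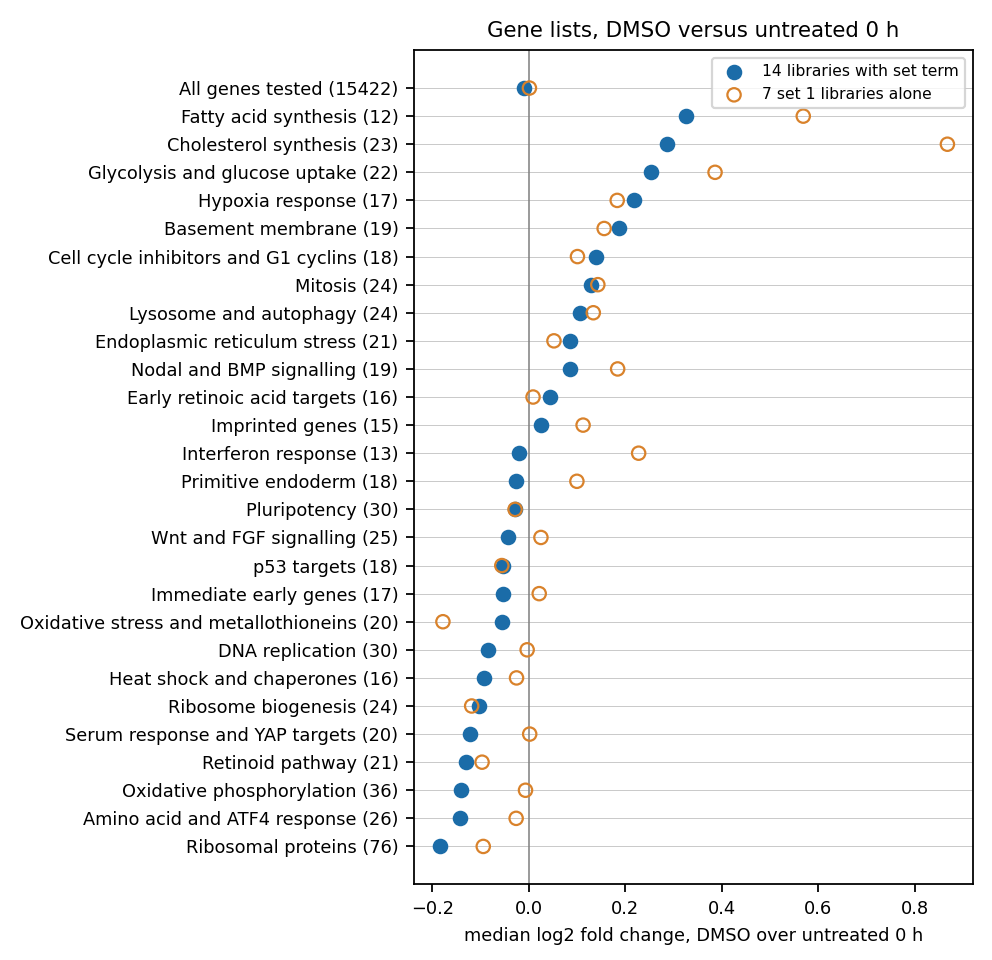
Median log2 fold change of DMSO over untreated 0 h for all genes and for each list with at least 10 tested members (number in brackets), in the fit of 14 libraries with a set term (filled blue) and in the 7 set 1 libraries alone (open orange). The cholesterol list stands at 0.29 and 0.87, the glycolysis list at 0.25 and 0.39, and the pluripotency list at -0.03 in both.

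Pluripotency genes differed little between DMSO and untreated cells. Of the 30 genes tested 0 were called over 14 libraries, and their median log2 change was -0.03. The 95% interval of 27 of the 30 (90%) lay within 2-fold. That is near the 86.3% of all genes with at least 5 CPM at 0 h. Pou5f1, which encodes OCT4, had 2313 and 2696 CPM in DMSO against 2398, 1738, 2279 and 2039 CPM in untreated cells, with overlapping groups and a change of -0.23 ± 0.20 (95% interval -0.67 to 0.20). Nanog had 284 and 276 CPM in DMSO against 279.8, 409, 291 and 270.1 CPM, at 0.08 ± 0.20.

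Sox2, the partner of OCT4, had 867 and 907 CPM in DMSO against 827, 533, 463 and 453 CPM in untreated cells. The untreated library of set 1 lay near the DMSO values and the other 3 lay well below, and the change was 0.41 ± 0.18 (unadjusted p = 0.0441, adjusted p = 0.606). Klf4, another reprogramming factor, had 24.1 and 26.2 CPM in DMSO against 27.5, 16.1, 9.30 and 12.6 CPM, at 0.10 ± 0.28. Lin28a, an RNA-binding protein of stem cells, had 379 and 357 CPM in DMSO against 486, 312, 527 and 453 CPM, at -0.41 ± 0.19 (adjusted p = 0.606). Tdh, the threonine dehydrogenase on which mouse pluripotent cells depend, had 506 and 600.3 CPM in DMSO against 517, 356, 525 and 419.6 CPM, at 0.14 ± 0.18. In RA at 48 h, in the same fit, Pou5f1 stood at -1.93, Nanog at -1.16, Sox2 at -1.49 and Tdh at -3.00, all called lower, and 23 of the 30 genes were called lower there against 23.7% of all genes.

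The listed targets of RA were not called in DMSO, whereas most early ones were called in RA. Hoxa3, a Hox cluster gene in no list, was called lower within set 1, at a log2 change of -3.47. Of the 16 tested early targets 0 were called under DMSO (median 0.04), and 14 were called higher at RA 24 h (16.3% of all genes) and 15 at RA 48 h (26.8% of all genes). Of the 21 tested genes of the retinoid pathway 0 were called under DMSO (median -0.13), and 11 were called higher at RA 24 h. The interval of the log2 change under DMSO lay within 1 in either direction for only 2 of the 16 early targets (12.5%). In the retinoid pathway it did so for 8 of the 21 genes (38.1%), against 63% of all genes. For most genes of both lists a larger change under DMSO could thus have been missed.

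Cyp26a1, the enzyme that breaks down RA and one of its most inducible targets, was low in both DMSO libraries, at 0.697 and 0.519 CPM against 1.65, 6.13, 7.50 and 2.73 CPM in untreated cells. The groups did not overlap, and the log2 change was -2.40 ± 0.83 (unadjusted p = 0.0138, adjusted p = 0.567), while RA at 24 h stood at 6.10. Rarb, the receptor gene that RA induces through its own promoter, had 0.697 and 1.82 CPM in DMSO against 0.598, 0.464, 0.845 and 1.17 CPM, at 0.73 ± 0.45, and stood at 5.51 in RA at 24 h.

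Hoxb5 had 12 counts over both DMSO libraries against 2 counts over the 4 untreated libraries, a ratio of 15.0 after scaling for depth (95% counting interval 3.34 to 138), and its edgeR adjusted p was 0.435. Stra8, a germ cell gene induced by RA, had 2 counts in DMSO against 26 counts in untreated cells, a ratio of 0.192 (0.0221 to 0.768), and 0 h library 4 alone held 1.75 CPM. Lrat, which stores retinol as esters, had 0.975 and 1.30 CPM in DMSO against 0.150, 0.371, 0.423 and 0.390 CPM, at 2.11 ± 0.60 (adjusted p = 0.566). Rarg, the receptor through which F9 cells answer much of RA, had 593 and 523 CPM in DMSO against 649, 509, 689 and 522 CPM, at -0.40 ± 0.18 (adjusted p = 0.606). Whether the authors' counting used strand is not given in the sources used here, so reads of Hox genes and of their antisense partners cannot be told apart.

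Genes of the primitive endoderm program were not called under DMSO. Of the 18 tested 0 passed (median -0.03), and all 18 were called higher at RA 48 h, against 26.8% of all genes. Under DMSO the 95% interval of only 3 of the 18 (16.7%) lay within a log2 change of 1 in either direction, against 63% of all genes. For most of this list a larger change under DMSO could thus have been missed. Gata6, the factor that starts the program, had 3.76 and 3.77 CPM in DMSO against 3.59, 0.650, 0.423 and 3.02 CPM in untreated cells, at 0.42 ± 0.54. The DMSO values lay just above the highest untreated value, and the untreated libraries themselves spread over a wider range. Gata4, its partner, had 12.4 and 14.9 CPM in DMSO against 15.7, 8.35, 14.9 and 11.1 CPM, at -0.54 ± 0.32. Sox17 had 0.279 and 1.43 CPM in DMSO against 0.748, 0.464, 0.423 and 0.390 CPM, at -0.45 ± 0.65.

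Hnf4a, a factor of visceral endoderm, had 2.09 and 4.94 CPM in DMSO against 0.898, 0.557, 0.423 and 0.390 CPM in untreated cells. Both DMSO values lay above all 4 untreated values, at 1.63 ± 0.57 (unadjusted p = 0.012, adjusted p = 0.567). Foxa2 went the other way, with 0 counts in both DMSO libraries against 10 counts over the untreated libraries, which with a floor of 3 counts over the DMSO group is at least 1.33-fold lower. Of the matrix genes that endoderm secretes, Col4a1 had 112 and 75.1 CPM in DMSO against 83.8, 37.7, 39.9 and 69.6 CPM (0.19 ± 0.27), and Lama1 had 83.7 and 84.7 CPM against 107, 38.7, 46.9 and 50.4 CPM (-0.32 ± 0.14, adjusted p = 0.606), a sign that turned without the set term. In RA at 48 h these genes stood at 4.85 and 4.24.

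**Figure D5:**
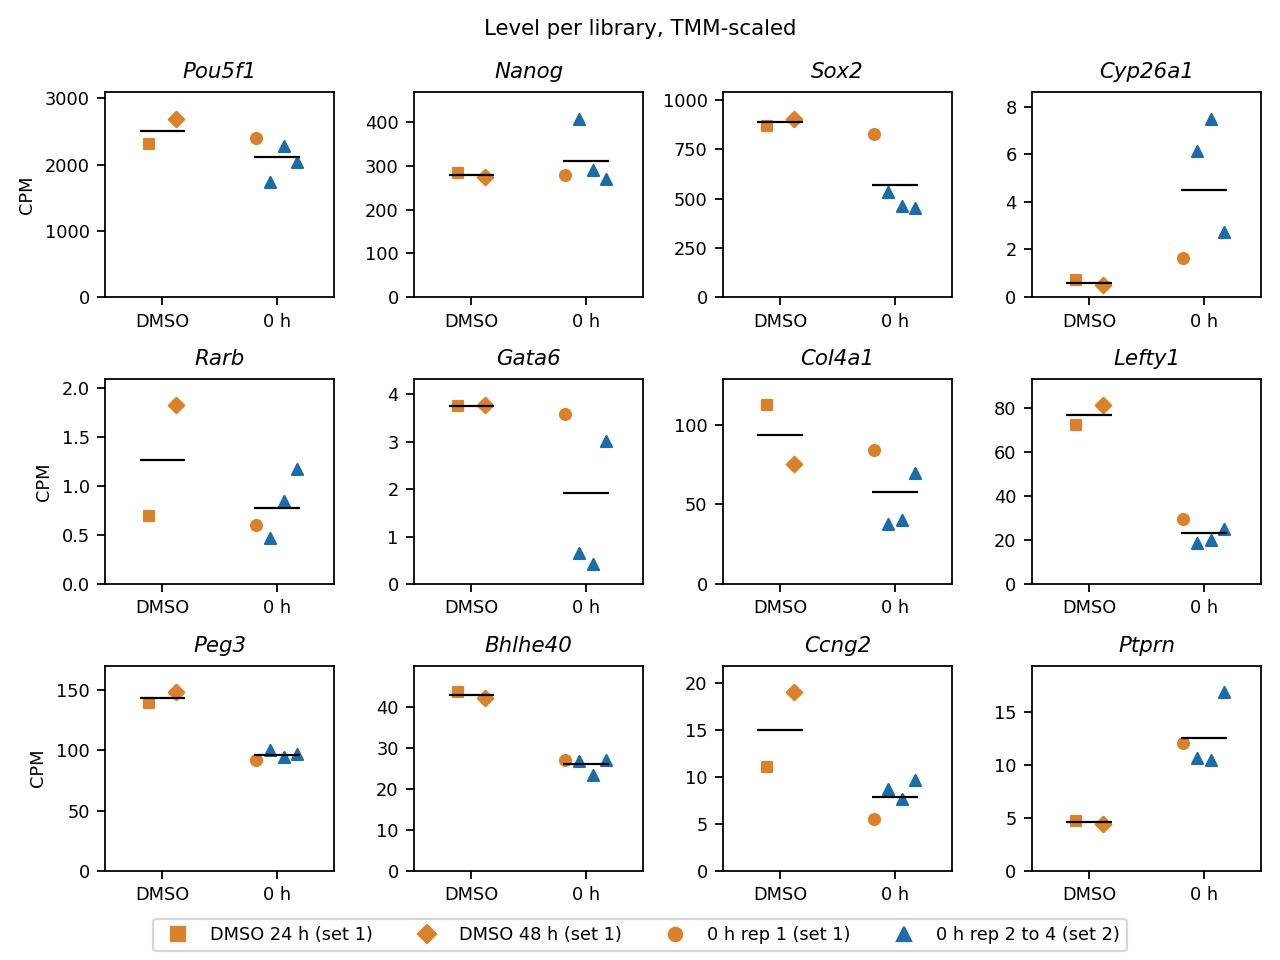
CPM of 12 genes in each DMSO library (24 h square, 48 h diamond) and each untreated 0 h library (set 1 circle, set 2 triangles), with the group mean as a black line and axes from 0. The groups do not overlap for Sox2, Cyp26a1, Gata6, Lefty1, Peg3, Bhlhe40, Ccng2 or Ptprn, and they do for Pou5f1, Nanog, Rarb and Col4a1.

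A rule named 24 genes, 12 in each direction, by smallest p among genes that met conditions given below. Of these edgeR over 14 libraries called 0. DESeq2 with the set term called 12 of the 24, out of 16 genes it called in all. The 24 were picked by p from the same libraries, so that count is not separate support. Peg3, an imprinted zinc finger gene expressed from the paternal allele, had 139 and 148 CPM in DMSO against 92.3, 100.3, 94.4 and 96.6 CPM in untreated cells. The groups did not overlap, and its change was 1.01 ± 0.17 over 14 libraries (unadjusted p = 2.65e-05, adjusted p = 0.332) and 0.64 within set 1 (adjusted p = 0.00346). The larger value includes a set term of -0.58, although the untreated libraries of both sets lay close together for this gene. Bhlhe40, a repressor of the clock and of stress and hypoxia responses, had 43.5 and 42.1 CPM in DMSO against 26.9, 26.7, 23.4 and 27.0 CPM, at 0.83 ± 0.15 (adjusted p = 0.332).

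Ccng2, a cyclin of cells that leave the cycle, had 11 and 19 CPM in DMSO against 5.54, 8.72, 7.61 and 9.65 CPM in untreated cells, at 1.29 ± 0.25 (adjusted p = 0.435). Its 48 h library stood above the 24 h one. Loxl2, which crosslinks collagen, had 25.4 and 26.0 CPM in DMSO against 10.6, 9.65, 11.8 and 10.5 CPM, at 1.04 ± 0.22 (adjusted p = 0.435). Prom1, a membrane protein of stem cells, had 25.5 and 32.9 CPM in DMSO against 11.4, 17.4, 16.6 and 19.6 CPM, at 1.58 ± 0.36 (adjusted p = 0.435).

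The other 7 genes that the rule named on the higher side were Gpsm2, Cecr2, Tfdp2, Ap3b2, Rsrp1, Tyro3 and Itpr1, with log2 changes of 0.60 to 1.30 and an adjusted p of 0.435 each. Gpsm2 orients the mitotic spindle, Tfdp2 pairs with E2F factors, Tyro3 is a receptor tyrosine kinase and Itpr1 releases calcium from stores. Tyro3 had 121 and 139 CPM in DMSO against 88.9, 75.5, 61.0 and 73.9 CPM in untreated cells. RA at 48 h was also called above 0 h for Peg3, at 3.57, for Ap3b2, at 4.72, and for Loxl2, at 2.02.

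On the lower side Ptprn, a protein of secretory granules, had 4.74 and 4.42 CPM in DMSO against 12.1, 10.7, 10.5 and 16.9 CPM in untreated cells, without overlap, at -1.55 ± 0.32 (adjusted p = 0.435). B3galt6, which builds the linker of glycosaminoglycan chains, had 5.57 and 5.19 CPM in DMSO against 11.4, 10.5, 11.3 and 10.2 CPM, at -1.22 ± 0.26 (adjusted p = 0.435). Plaur, the urokinase receptor, had 14.2 and 13.1 CPM in DMSO against 28.9, 18.5, 33.7 and 17.8 CPM, at -1.16 ± 0.27 (adjusted p = 0.435). Perp, a p53 target of cell adhesion, had 72.6 and 61.7 CPM in DMSO against 95.9, 124, 155 and 153 CPM, at -0.66 ± 0.16 (adjusted p = 0.435).

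Trim44, Shank3, Agpat3, Ltbr, Sult4a1, Ddr1, Reep6 and Pcolce complete the lower side, with log2 changes of -0.59 to -1.37. Shank3, a scaffold of synapses, had 15.2 and 15.5 CPM in DMSO against 34.1, 12.6, 24.4 and 16.5 CPM in untreated cells, so that the untreated values of set 2 lay on both sides of DMSO. Ddr1, a collagen receptor, had 19.6 and 18.6 CPM in DMSO against 31.7, 37.1, 50.9 and 31.2 CPM in untreated cells.

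Among the genes called within set 1 that belong to no list, Igfbp2, which binds insulin-like growth factors, had 287 and 346 CPM in DMSO against 138, 126, 247 and 172 CPM in untreated cells (adjusted p = 2.59e-13 within set 1). Pgm1, a phosphoglucomutase of glycogen metabolism, had 80.2 and 101 CPM in DMSO against 34.3, 41.7, 44.4 and 47.6 CPM, with 1.40 within set 1 and 1.00 ± 0.27 over 14 libraries (unadjusted p = 0.00201). Phlda1 had 45.0 and 38.2 CPM in DMSO against 85.6, 29.9, 49.9 and 35.6 CPM, so that 0 h libraries 1 and 3 stood above both DMSO libraries and 0 h libraries 2 and 4 below them. These 3 were picked after their values were seen.

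Lefty1 and Lefty2, antagonists of the Nodal signal that patterns the early embryo, were called higher within set 1. Lefty1 had 72.0 and 81.0 CPM in DMSO against 29.5, 18.7, 19.9 and 25.0 CPM in untreated cells, at 1.38 within set 1 (adjusted p = 2.42e-12) and 0.99 ± 0.30 over 14 libraries (unadjusted p = 0.00624, adjusted p = 0.566). Lefty2 had 140.3 and 221 CPM in DMSO against 80.6, 47.3, 104 and 53.8 CPM, at 1.17 within set 1 and 0.51 ± 0.60 over 14 libraries. Id1, a target of BMP signalling, had 323 and 338 CPM in DMSO against 468, 560.4, 477 and 381 CPM, at -0.48 ± 0.16 (adjusted p = 0.566).

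Genes of growth and protein synthesis had mostly negative changes, and 0 were called over 14 libraries. Of 76 tested ribosomal protein genes 64 had a negative change (median -0.19), of 24 ribosome biogenesis genes 20 (median -0.10), of 36 nuclear genes of oxidative phosphorylation 30 (median -0.14) and of 26 genes of the ATF4 amino acid response 21 (median -0.14), against 7907 of all 15422 genes. Without the set term the median of the ATF4 list was 0.02. Within set 1 the medians were -0.09, -0.12, -0.01 and -0.03, and 1 of these genes was called there, Bysl. Bysl, needed for the small ribosomal subunit, had 299 and 227 CPM in DMSO against 373, 251, 341 and 241 CPM in untreated cells, at -0.66 ± 0.17 (unadjusted p = 0.00174, adjusted p = 0.482). Asns, the asparagine synthetase that ATF4 drives, had 863 and 817 CPM in DMSO against 795, 981, 1168 and 923 CPM, at -0.07 ± 0.14. Myc had 282 and 264 CPM in DMSO against 279, 131, 225 and 232 CPM, at -0.32 ± 0.23.

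Genes of DNA replication and mitosis stayed within 2-fold of their untreated levels. All 30 DNA replication genes and all 24 mitosis genes had a 95% interval within 2-fold, against 86.3% of genes with at least 5 CPM. Their medians were -0.08 and 0.13, and without the set term both signs turned, to 0.02 and -0.07. Of the mitosis genes 5 were higher and 0 lower at an unadjusted p under 0.05 by edgeR, against 4.09 and 4.02% of all genes. Nusap1, a spindle protein, had 82.9 and 87.9 CPM in DMSO against 52.2, 91.8, 96.3 and 119.8 CPM in untreated cells, at 0.63 ± 0.15 (adjusted p = 0.435), and its sign turned without the set term. Ccnd3, a G1 cyclin, had 408 and 309 CPM in DMSO against 531, 365, 445 and 282 CPM, at -0.67 ± 0.19 (adjusted p = 0.551). Within set 1 Nusap1 was called higher, at 0.71, and Ccnd3 lower, at -0.57.

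Among stress genes, the metallothioneins Mt1 and Mt2, Txnip and Hmox1 were called lower within set 1, 4 of 20 tested genes against 0.204% of all genes, and 0 were called over 14 libraries. Hmox1, the haem oxygenase, had 182 and 150.0 CPM in DMSO against 239.7, 280.5, 334 and 395 CPM in untreated cells, without overlap, at -0.50 ± 0.15 (adjusted p = 0.566). Txnip, which rises with glucose supply, had 115 and 94.5 CPM in DMSO against 162, 134, 115 and 130.5 CPM, at -0.40 ± 0.16 (adjusted p = 0.584). Ddit4, a stress inhibitor of mTOR, had 366 and 387 CPM in DMSO against 369, 337, 389 and 271 CPM, at -0.10 ± 0.18.

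The immediate early genes, which answer serum within minutes, had 0 of 17 called. Egr1 had 36.6 and 28.6 CPM in DMSO against 18.0, 20.8, 12.4 and 29.2 CPM in untreated cells, at 1.12 ± 0.37 (unadjusted p = 0.00975, adjusted p = 0.566), and Fos had 1.53 and 1.43 CPM against 0.898, 2.69, 1.48 and 2.34 CPM. Of 21 endoplasmic reticulum stress genes, 16 chaperones, 18 p53 targets, 24 lysosome genes and 13 interferon response genes 0 were called in either fit.

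The markers of embryonal carcinoma cells were high in all 6 libraries. The 9 of them summed to 5954 and 6449 CPM in DMSO against 4724 to 6008 CPM in untreated cells. The visceral endoderm markers summed to 10.6 and 6.49 CPM in DMSO against 1.76 to 7.50 CPM, and 5 of 10 of them, Afp, Apoa1, Apoa4, Apoc2 and Fgb, had 0 counts in all 6 libraries. Neural markers summed to 273 and 241 CPM in DMSO against 221 to 289 CPM in untreated cells. Mesoderm and muscle markers summed to 14.8 and 18.1 CPM in DMSO against 15.3 to 23.8 CPM in untreated cells, and fibroblast markers to 22.4 and 15.8 CPM in DMSO against 11.8 to 30.2 CPM in untreated cells. Blood and endothelial markers summed to 38.0 and 29.7 CPM in DMSO against 32.9 to 39.4 CPM in untreated cells, and trophoblast markers to 46.0 and 29.0 CPM in DMSO against 31.3 to 63.7 CPM in untreated cells. The trophoblast factor Cdx2 was called lower within set 1, at 6.97 and 2.34 CPM in DMSO against 12.4, 2.97, 3.28 and 5.07 CPM in untreated cells.

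The 2 DMSO times were also fitted as separate groups of 1 library each, assumed to vary like the other groups, over 16155 genes. DMSO at 24 h and at 48 h each had 0 genes called against untreated cells (0% each), with 815 (5.04%) and 1112 (6.88%) at an unadjusted p under 0.05, and DMSO at 48 h against 24 h had 0 called and 568 (3.52%) at that level. The cholesterol list had medians of 0.34 at 24 h and 0.29 at 48 h, the glycolysis list 0.23 and 0.31, and ribosomal proteins -0.13 and -0.23. Bysl stood at -0.46 at 24 h and -0.86 at 48 h, Ccng2 at 0.86 and 1.64, Trim44 at -0.55 and -1.13, and Crabp2, a carrier of RA, at 0.09 and -1.57. These comparisons share the untreated libraries, and with 1 library a time their order is not tested by replicates.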

How the data were processed

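Poly(A) mRNA libraries of F9 cells were compared, and the ChIP samples of the series were not used here. The values are raw read counts per gene deposited by the authors, 1 table per library with 36814 genes. Per the submitters' processing notes the tools named were TopHat2 2.0.7, HTSeq and DESeq with build mm9, and the strand setting is not given in the sources used here. Rows for reads given to no gene held 72.52 to 76.78% of each library's total and were left out of library sizes.

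Counts were scaled by TMM and fitted with edgeR 4.0.16 (robust quasi-likelihood F-test, R 4.3.3) on all 14 mRNA libraries with group and library set as terms, after filterByExpr, which left 15422 genes. P-values were adjusted by Benjamini-Hochberg over all of them, and calls needed an adjusted p under 0.05. Each SE was taken from the size of the change and its F statistic (change over root F). CPM are TMM-scaled. Ratios of low counts carry 95% intervals that cover counting error only, with a floor of 3 counts.

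Genes named as examples were the 12 called genes of largest change per direction, with places filled by smallest p where fewer were called, at a mean of at least 5 CPM and with both DMSO libraries on the same side of every 0 h library of their own set and of the median of all 0 h libraries. Fixed genes and the leading members of each of 36 lists were added, and a gene outside this rule is named for its values. The members and lists were chosen with earlier results of these data known. Alternatives were other scaling (RLE), DESeq2 1.42.0, other filters, the fit without the set term, a surrogate variable (sva 3.50.0), 6 libraries alone, set 1 alone, a set term that differs by time, and each DMSO and 0 h library left out. The fits were tested on simulated data. A few single genes are not reported here.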

Additional observations from a re-analysis of the deposited data

Results flagged for a closer look

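Among the 4 untreated 0 h libraries, 4 of the 85 genes named in the results had 1 library far from the other 3, where chance flags about 1 group in 20. The measure is the gap to the nearest library divided by the whole range of the 4, set against Dixon's 95% limit.

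Bhlhe40 was low in 0 h library 3, at 23.4 CPM against 26.7 to 27.0 CPM in the others (0.927). Foxa2 was high in 0 h library 1, the only untreated library of set 1, at 0.598 CPM against 0.186 to 0.211 CPM (0.938). Foxa2 had 10 counts over the untreated libraries, so its gap rests on few reads. Nanog was high in 0 h library 2, at 409 CPM against 270.1 to 291 CPM (0.848). Slc16a3 was high in 0 h library 3, at 576 CPM against 265 to 312 CPM (0.851). Both DMSO libraries lay above that high value of Slc16a3, at 611 and 623 CPM.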

How the results depend on the processing

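No paired analysis was possible because the DMSO libraries carry no replicate number in the labels. The count of 0 called genes stood under RLE scaling, a minimum of 1 CPM in 2 libraries, no set term, a surrogate variable, 6 libraries with or without the set term, non-robust estimation, a set term differing by time and the fit without RA 24 h library 1. DESeq2 with the set term called 16 genes (9 higher, 7 lower, 3 in lists). With no filter 5 were called, 5 of them higher and 3 in lists, with 948 higher at an unadjusted p under 0.05 and 2 called for DMSO at 48 h. Set 1 alone gave 119 (88 higher, 31 lower, 49 in lists), 116 with RLE (85, 31 and 48) and 29 with DESeq2 (27, 2 and 22), where 127 higher and 53 lower passed the unadjusted threshold. The 6 libraries with the set term had 302 higher and 145 lower at that threshold and a set term called for 1397 genes. DESeq2 on those 6 called 17, all 17 higher and 13 in lists, with 222 higher and 82 lower unadjusted and 1405 for the set. Without the set term these 6 had 1131 lower unadjusted. The set term differing by time gave 412 higher and 227 lower. The cause of these differences was not tested.

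With each DMSO and 0 h library left out in turn, called genes numbered 0 to 1, higher genes 0 to 1, list members 0 to 1 and genes for DMSO at 48 h 0 to 1, and in each case the 1 appeared without 0 h library 1. Unadjusted, higher genes ranged from 382 to 1023 and lower genes from 443 to 1140. The 1023 and 1140 came without 0 h library 1, and the 382 came without DMSO at 48 h.

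Among the reported genes with an unadjusted p under 0.05 by edgeR over 14 libraries, 10 turned sign without the set term. Turns of sign in genes with a larger p were not counted, so their signs may also depend on the set term. The 10 genes follow. Their log2 changes over 14 libraries and over 6 were -0.077 and -0.078 for Nusap1, -0.058 and -0.060 for Cenpe, -0.20 and -0.21 for Lef1, 0.052 and 0.051 for Slc7a5, -0.15 and -0.15 for Hsp90b1, 0.024 and 0.023 for Rrp9, 0.049 and 0.048 for Etv4, 0.12 and 0.12 for Nr4a1, -0.33 and -0.33 for Map2, and 0.48 and 0.48 for Lama1.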
